A study of Mus musculus with 4 samples.

Results

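The 8 genes described here are 4 markers of macrophages, Cx3cr1, Itgam, Cd163 and C1qa, and 4 genes that carry or restrain inflammatory signals, Traf6, Nfkbia, Socs1 and Socs3. They were taken from lists of N6-methyladenosine (m6A) sites in mouse heart mRNA as every site assigned to one of these gene symbols. They are 8 of the 6660 genes with a site in either list. They hold 8 of the 10814 sites of the wild-type list and 7 of the 10388 sites of the knockout list. The lists come from hearts of wild-type mice and of ABRO1 knockout mice, both on the C57BL/6 background. Each list was made from 1 library of RNA fragments pulled down with an antibody against m6A and 1 input library without the pull-down. The labels used here give neither the age and sex of the mice, nor the exons deleted in the knockout, nor how many hearts went into a library. Without replicates the genotypes could not be tested against each other, and each difference below is one between 2 lists.

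m6A is a methyl mark that the METTL3 and METTL14 writer complex places on adenosines of mRNA, mostly near stop codons and in long exons, and it often shortens the life of the transcript. Macrophages live in the healthy heart among cardiomyocytes, where they clear debris and dying cells. Signals from Toll-like receptors, the interleukin-1 receptor and cytokine receptors reach the nucleus through NF-kB and STAT factors, which in turn induce their own inhibitors. IkB-alpha, encoded by Nfkbia, holds NF-kB in the cytoplasm, and the SOCS proteins block JAK kinases, so these transcripts are made and destroyed quickly in stimulated cells.

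Sequencing depth is unknown, because the lists hold no read counts. The fold is the authors' enrichment of pulled-down over input fragments at a site. The score is the negative log10 of the p-value from peak calling, multiplied by 10, and grows as that p-value shrinks. Over all sites, the median fold was 9.35 for wild type and 7.96 for knockout, and the median score was 266 and 270. The deposited false discovery rate was 100% for 14 of the 15 sites of the 8 genes and 96.3% for the site of Traf6, in lists where 82.86% (wild type) and 99.97% (knockout) of all sites stood at 100%. The filter that left these sites is not given in the sources used here, and such values lend no support to a single site. No site was assigned to Abraxas2, the current symbol of ABRO1, in either list, so the sites do not check the genotype. Of 10 cardiomyocyte markers, Ttn, Tnnt2 and Ryr2 had a site in both lists, each with a score of 3100, and the other 7 had none. Many genes share a score of exactly 3100 at widely differing folds, so equal scores of 3100 do not show equal strength. A missing site does not show that a transcript was absent or unmethylated.

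Of the 8 genes, Cx3cr1, Itgam and Cd163 had sites in both lists. Traf6 and Socs1 were found for wild type alone, and Nfkbia, Socs3 and C1qa for knockout alone. Among all genes with a site in either list, 14.0% were found for wild type alone and 11.6% for knockout alone, against 2 and 3 of these 8. The 8 were chosen with the lists known, so these counts describe the choice. All 4 signalling genes were thus in one list only, and 3 of the 4 macrophage markers were in both. The folds of the 8 wild-type sites ran from 4.83 to 16.2 with a median of 12.9, and those of the 7 knockout sites from 5.47 to 11.1 with a median of 6.25. Their median scores were 250 and 202, below the medians of the whole lists. An m6A site in whole heart reflects both the mark and the amount of the transcript above the caller's limit. For a macrophage gene, fewer cells of that type and less RNA per cell cannot be told apart.

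**Figure D1:**
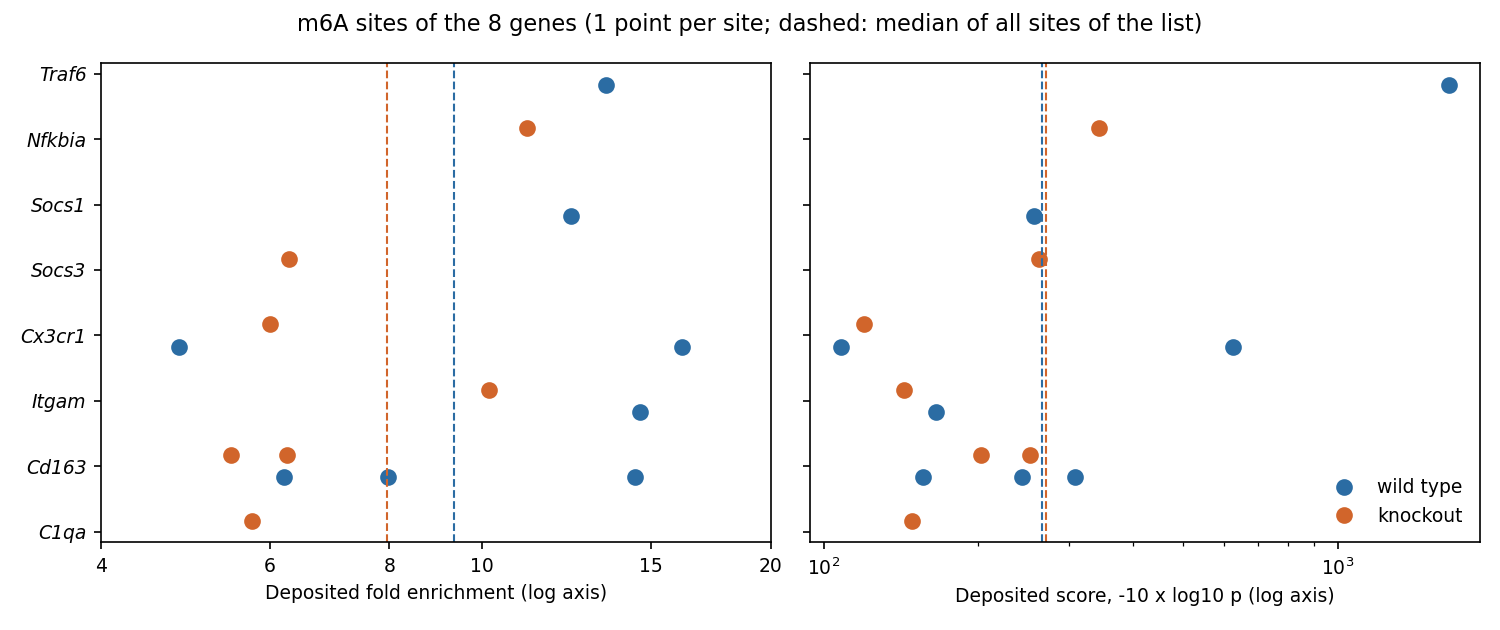
Deposited fold enrichment (left, log axis) and deposited score (right, log axis) of each site of the 8 genes, 1 point per site, blue for the wild-type and orange for the knockout list. Dashed lines mark the median of all sites of each list. Traf6 has the highest score, 1647, and Cx3cr1 both the highest and the lowest wild-type fold, 16.2 and 4.83.

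Traf6 encodes a ubiquitin ligase and adaptor that passes the signal of Toll-like and interleukin-1 receptors on to NF-kB and MAP kinases. Its wild-type site ran from 101696663 to 101698023 on chromosome 2 (plus strand), 1361 bp within a gene that runs from 101678420 to 101701668. The fold was 13.5 and the score 1647. This score was higher than that of 84.9% of wild-type sites, and Traf6 ranked 15 of the 933 genes found for wild type alone. The median strongest score among those 933 genes was 97.9, against 510 for genes in both lists. The knockout list held no site in the span of Traf6 under any symbol. The nearest listed knockout sites lay 3011379 bp to the left, in Gm10800, and 679195 bp to the right, in Trim44. The peak caller numbered its sites in genome order, and 31 numbers between these neighbours are missing from the knockout list, against 26 in the wild-type list. Whether one of them fell in Traf6 is not known.

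Of the 5 TRAF genes examined, Traf6 thus carried the strongest site. Traf1, Traf3 and Traf5 were in both lists with strongest scores from 57.8 to 68.2 (wild type) and 82.3 to 175 (knockout). Traf2, an adaptor of tumour necrosis factor receptors, appeared for knockout alone (fold 4.95, score 153).

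Nfkbia had 1 site, in the knockout list, on chromosome 12 from 55492300 to 55492647 on the minus strand. Its fold was 11.1 and its score 344, which ranked 54 of the 772 genes found for knockout alone. The median strongest score of those 772 genes was 93.1. The site was 348 bp long and began at base 1 of the annotated gene (55489409 to 55492647), so it is the only one of the 15 sites whose upstream edge coincides with the start of its gene. Such an edge was found for 7.03% of knockout sites with a matched gene. The wild-type list held no site in the gene, and its nearest listed sites were 186409 bp away in 1110008L16Rik and 183756 bp away in Ralgapa1. Between them 5 site numbers are missing from that list.

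The start of Nfkbia is printed below because the knockout site begins there. The run covers chr12:55492618-55492897 of GRCm38.p6 (the assembly of mm10), minus strand, 5′ to 3′, from RefSeq. The lower-case letters are the 250 bases before the gene, and the capitals are the first 30 bases of the gene, which are the first 30 bases of the site.
Nfkbia start: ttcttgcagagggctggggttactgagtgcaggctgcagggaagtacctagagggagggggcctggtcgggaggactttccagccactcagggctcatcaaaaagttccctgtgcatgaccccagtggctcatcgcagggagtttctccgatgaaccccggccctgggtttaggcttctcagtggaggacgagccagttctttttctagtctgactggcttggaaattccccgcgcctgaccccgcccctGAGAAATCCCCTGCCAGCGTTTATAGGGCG
NF-kB is known to induce Nfkbia through kB motifs in this promoter. The search for the kB consensus, a motif of 10 letters, covered both strands of the 300 bases from 250 before to 50 after the gene start. It found 1 match, on the opposite strand, 29 to 20 bases before the gene start.
kB match in Nfkbia: GGGAATTTCC
The same consensus was found in 4.51% of 32851 such windows. The other 6 of the 8 genes with a window in the RefSeq table had 0 matches, and 7 of the 8 genes had a window. The letters GGAC, the core of the motif that the m6A writer prefers, were absent from the 50 bases after the start of Nfkbia. They occurred there in 18.9% of all windows, and the other 6 of the 8 genes with a window lacked them too. The remaining bases of the site were not read, as no genome sequence was used here.

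Socs1 and Socs3 stood in opposite lists. Socs1 encodes an inhibitor of JAK kinases that is best known for limiting interferon signals. Its wild-type site, on chromosome 16 from 10783809 to 10785041 on the minus strand, had a fold of 12.4 and a score of 257. It was 1233 bp long, covered 71.3% of the short annotated gene (10783808 to 10785536) and ended 1 bp from its 3′ end. Socs3 encodes the inhibitor that acts on the shared receptor of interleukin-6 and related cytokines. Its knockout site, on chromosome 11 from 117966466 to 117968318 on the minus strand, had a fold of 6.29 and a score of 262. It was 1853 bp long, longer than 90.2% of knockout sites, and covered 43.5% of the gene (117966079 to 117970336), ending 387 bp from the 3′ end. The scores of these sites were nearly equal and close to the medians of their lists, whereas the fold of Socs1 stood above the median of its list and that of Socs3 below.

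Socs1 ranked 131 of the 933 genes found for wild type alone, and Socs3 91 of the 772 found for knockout alone. Neither gene had a site of any symbol in its span in the other list. The knockout list lacks 19 site numbers between the neighbours of Socs1, and the wild-type list 13 between those of Socs3. Of the 8 genes examined of the SOCS family, Cish included, Socs4, Socs5, Socs6 and Socs7 had sites in both lists. Socs5 had the strongest, with folds of 10.9 and 9.05 and scores of 3055 and 3034 at overlapping sites. Socs6 had folds of 6.95 and 6.90, with scores of 524 and 999. Socs2 and Cish had none.

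**Figure D2:**
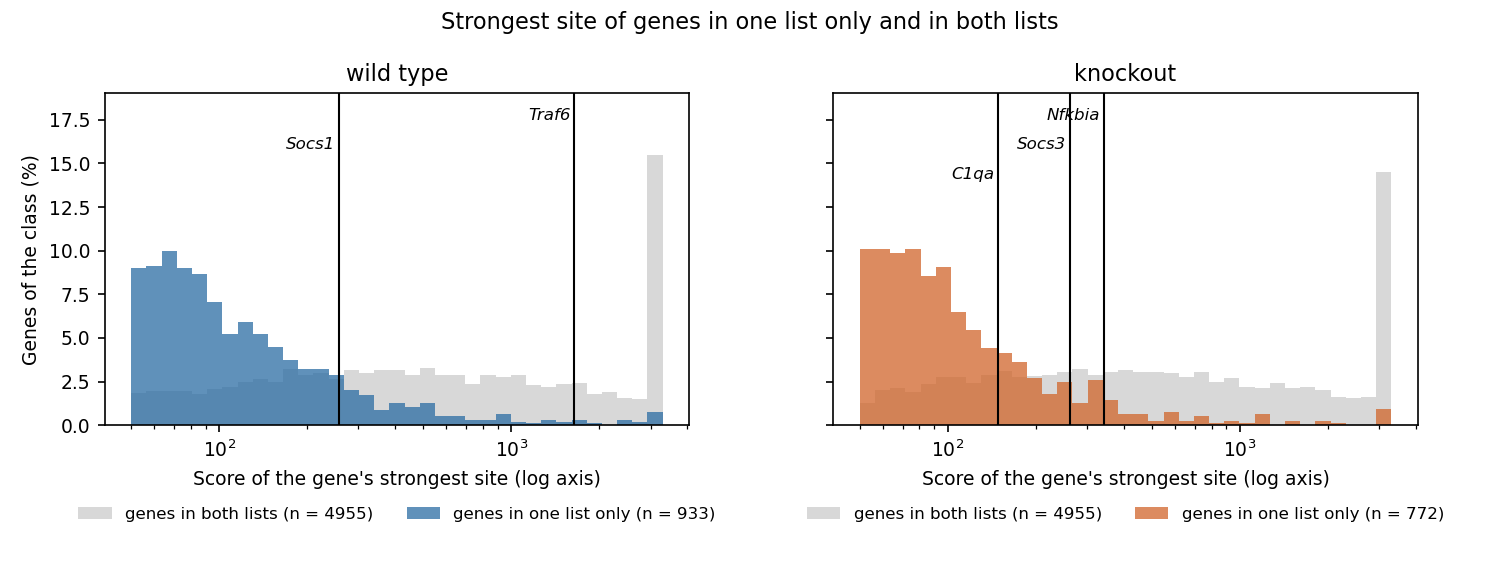
Distribution of the score of each gene's strongest site (log axis) for genes in both lists (grey, 4955 genes) and in one list only (blue, 933 wild-type genes; orange, 772 knockout genes), as a percentage of the genes of each class. Vertical lines mark the 5 genes described here that were in one list only. Traf6 lies far in the upper tail of its class, and C1qa closest to the bulk.

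Cx3cr1, the receptor of the chemokine fractalkine on monocytes and resident macrophages, had sites at its 3′ end in both lists, but their outlines differed. The wild-type list held 2 sites on chromosome 9 on the minus strand. The one at the 3′ end ran from 120048683, the last base of the annotated gene (120048683 to 120068296), to 120049866 (fold 16.2, score 624). The other began 147 bp further upstream in the transcript and ran from 120050014 to 120052343 (fold 4.83, score 108). The knockout list held a single site of 3457 bp from 120048887 to 120052343 (fold 6.01, score 120). It overlapped both wild-type sites, shared the upstream edge of the weaker one exactly and stopped 204 bp short of the 3′ end.

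The knockout site thus covered 82.8% of the stronger and 100% of the weaker wild-type site. Its fold was 0.371 times that of the stronger wild-type site and 1.24 times that of the weaker. Only 1.26% of all 8350 overlapping pairs had a lower ratio than 0.371. However, the shared bases were 28.3% of the knockout site, so the fold of a 1184 bp site is set against that of a 3457 bp site. A knockout site that overlapped 2 wild-type sites occurred 19 times in 10388 (0.183%), and the reverse occurred 20 times in 10814 (0.185%). Another of these 19 genes was Zfp36, named after its values were seen, whose protein destroys mRNAs of inflammatory cytokines. Its wild-type folds were 11.2 and 6.08 and its knockout fold was 15.4.

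Itgam encodes CD11b, the integrin chain that pairs with the product of Itgb2 to form the complement receptor Mac-1. It had 1 site per list near the 3′ end on chromosome 7, from 128117306 to 128118346 in the wild-type list and from 128117310 to 128118381 in the knockout list. The folds were 14.6 and 10.2 and the scores 165 and 143. The sites shared 1037 bp, 99.6% of the wild-type and 96.7% of the knockout site. They ended 145 bp and 110 bp before the end of the gene (128062640 to 128118491, plus strand). Itgb2 had no site in either list.

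Cd163 encodes the scavenger receptor for complexes of haemoglobin and haptoglobin that marks resident macrophages. It had 3 wild-type and 2 knockout sites on chromosome 6, plus strand, in a gene from 124304636 to 124330529. The site from 124308944 to 124309267 had identical edges in both lists, with folds of 6.21 and 5.47 and scores of 243 and 252. The site from 124311387 to 124311707 was also identical in position, with folds of 7.97 and 6.25 and scores of 308 and 202. The wild-type list held a further site from 124329583 to 124330527, which ended 2 bp before the end of the gene and had the highest fold of the gene, 14.4, with its lowest score, 156. The knockout list had no site there. Cd163 was therefore in both lists, while its site at the 3′ end was found for wild type alone.

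C1qa encodes the A chain of C1q, the first component of the classical complement pathway, which macrophages make. Its site was found for knockout alone, on chromosome 4 from 136897675 to 136897844 on the minus strand (fold 5.75, score 149). At 170 bp it was the shortest of the 15 sites, and it lay inside the gene (136895916 to 136898844), 1000 bp from the 5′ end. C1qb, the neighbouring gene for the B chain, had a site in both lists, with folds of 4.68 and 5.22 and scores of 103 and 95.6. C1qc, for the third chain, had none. Between the sites of C1qb and Zbtb40 that flank C1qa, 4 site numbers are missing from the wild-type list. C1qa ranked 196 of the 772 genes found for knockout alone, the lowest rank among the 5 genes with sites in one list.

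**Figure D3:**
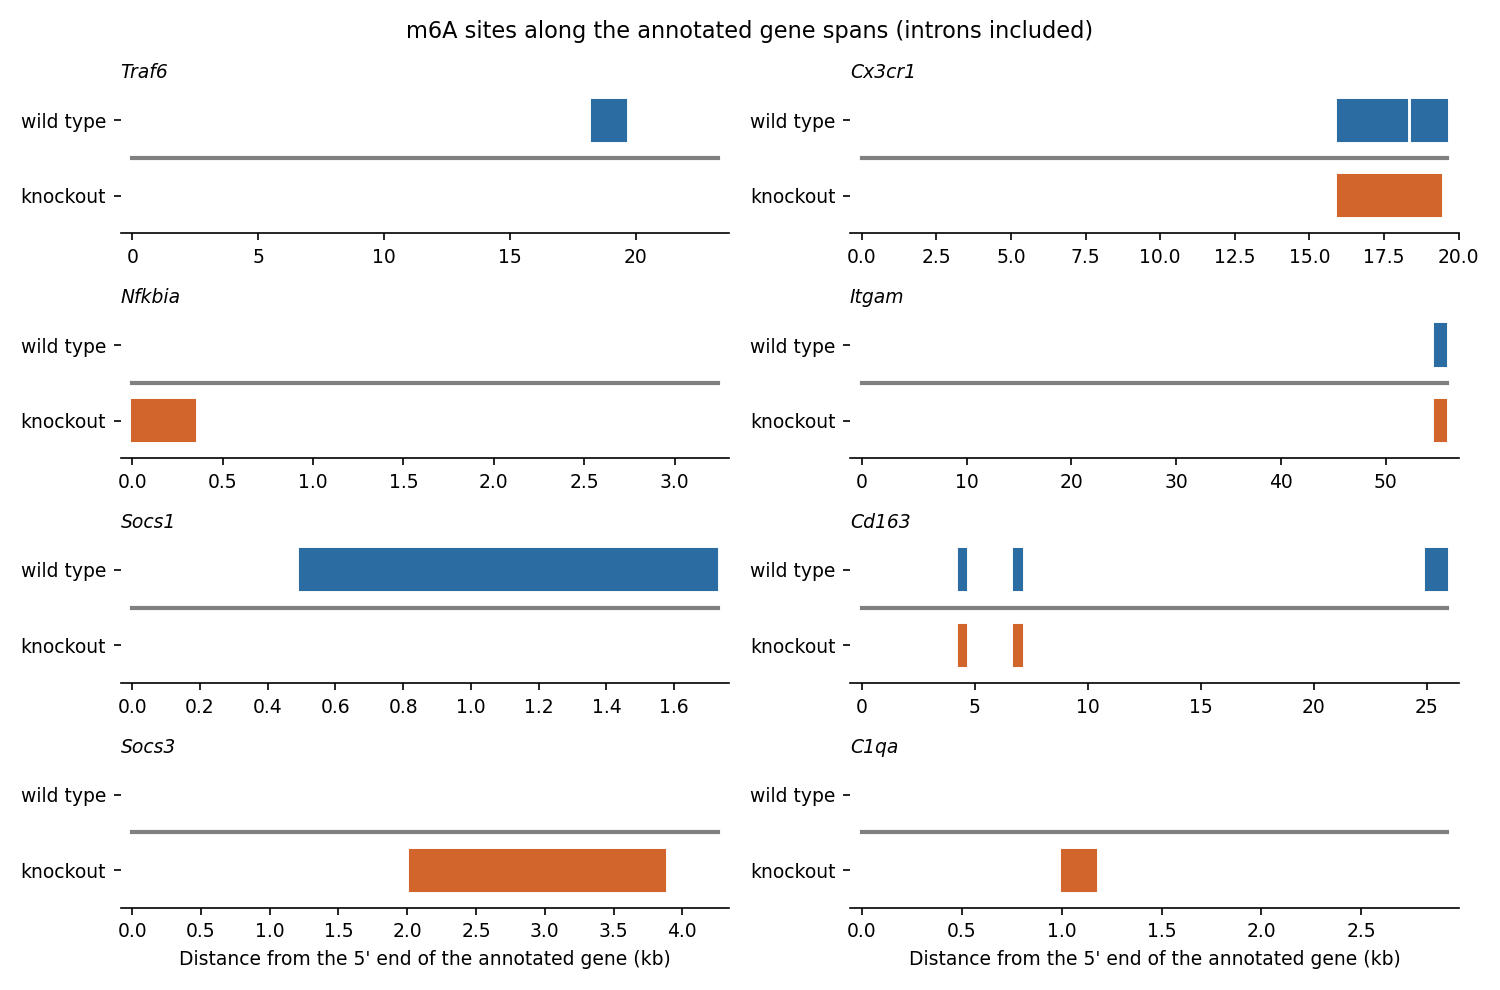
Sites of the 8 genes along the annotated gene (grey line, introns included), as distance from the 5′ end in kb, blue boxes for the wild-type list above and orange boxes for the knockout list below. Cx3cr1 shows 2 wild-type sites against 1 knockout site, and Cd163 a wild-type site at the 3′ end with none in the knockout list.

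Of the 8 wild-type sites, 5 overlapped a knockout site (62.5%, exact 95% interval 24.5 to 91.5), and 4 of the 7 knockout sites overlapped a wild-type site (57.1%, 18.4 to 90.1). Over the whole lists, 22.8% of wild-type and 19.6% of knockout sites had no overlap, against 3 of 8 and 3 of 7 here. With so few sites the intervals, which cover counting error only, hold the shares of the whole lists, 77.2% and 80.4%. They decide nothing, because the genes were chosen with the lists known and several sites share a gene. Both wild-type sites of Cx3cr1 overlapped the same knockout site. The sites without overlap were those of Traf6, Socs1, Nfkbia, Socs3 and C1qa and the third site of Cd163.

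In the 5 overlapping pairs the knockout fold was the lower one in 4, at Itgam, both Cd163 sites and the stronger Cx3cr1 site. Of all 8350 wild-type sites with an overlapping knockout site, 73.7% had the lower fold in the knockout list. The ratios of knockout to wild-type fold were 0.695 for Itgam, 0.881 and 0.784 for Cd163, and 0.371 and 1.24 for Cx3cr1. Their median, 0.784, lay near the median of all pairs, 0.823, and within its quartiles of 0.676 and 1.01. Only the pairs of Cx3cr1 lay outside these quartiles, in opposite directions. After division by the median fold of paired sites in each list, the median log2 ratio of the 5 pairs was -0.08 in place of -0.35. The lists were scaled and called separately, so the ratios describe them and do not measure methylation.

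**Figure D4:**
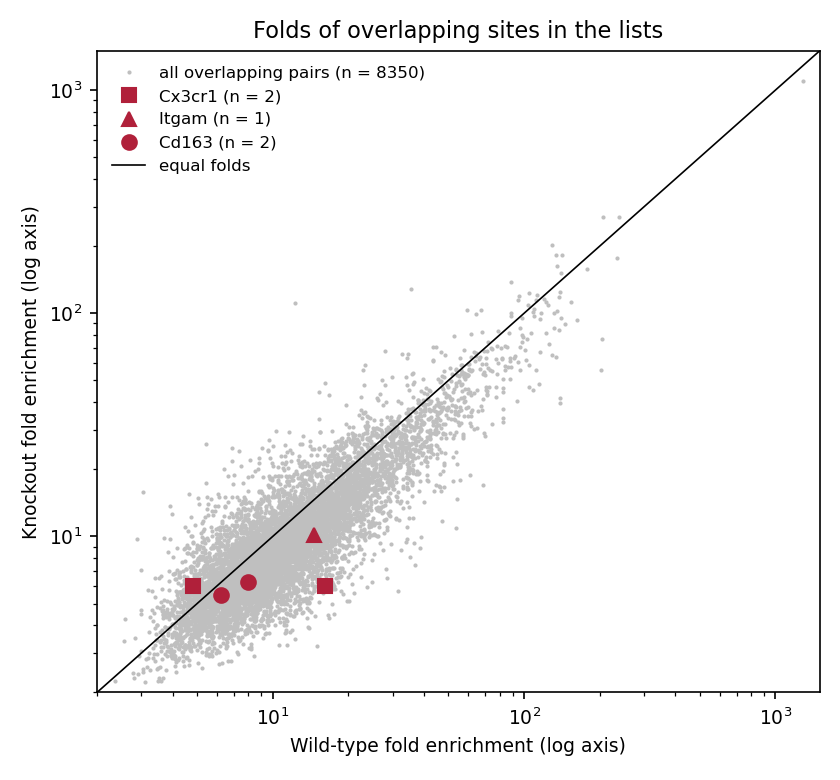
Wild-type fold (horizontal, log axis) against knockout fold (vertical, log axis) of overlapping sites, grey points for all 8350 pairs and red symbols for the 5 pairs of Cx3cr1, Itgam and Cd163. The line marks equal folds. Itgam and Cd163 lie within the cloud, which sits mostly below the line, and the stronger Cx3cr1 site (16.2 and 6.01) lies at its lower edge.

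Midpoints fell within the final 20% of the span for 5 of 8 wild-type sites (Traf6, Itgam, the strongest of Cx3cr1, its neighbour and the third of Cd163) and for 2 of 7 knockout sites (Cx3cr1 and Itgam). Over all sites with a matched gene these shares were 35.7% and 34.8%. The sites of the 8 genes are too few to read a departure from these shares or a difference between the lists. The wild-type count also takes both sites of Cx3cr1, which overlap the same knockout site. The identical Cd163 sites lay at 17.3% and 26.7% of the span, the Nfkbia site at 5.36% and the C1qa site at 37.0%. Spans include introns, and exons were not placed. The lncRNA genes Gm33858 and Gm52877 overlap the spans of Cx3cr1 and Cd163, but no site described here lies within them.

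The pathway around Traf6 and Nfkbia was examined as a list of 58 genes from Toll-like, interleukin-1 and tumour necrosis factor receptors to NF-kB. Of these, 37 had a site, among them Traf6 and Nfkbia, which were chosen with the lists known. The lists shared 24 of the 37, 8 (21.6%) were found for wild type alone and 5 (13.5%) for knockout alone. Over all genes with a site these shares were 14.0% and 11.6%. The median strongest score of the pathway genes was 179 for wild type and 222 for knockout, against 379 and 367 over all genes with a site. Beside Traf6, the wild-type list alone held Tirap, an adaptor of Toll-like receptors (fold 12.7, score 885), and the NF-kB subunit Relb (15.9 and 185). The Relb site ran only from 19622926 to 19622936, far shorter than the median wild-type site of 394 bp. Also in the wild-type list alone were the tumour necrosis factor receptor gene Tnfrsf1a (9.13 and 174), Tlr9 (8.09 and 125), Peli2 (10.8 and 125), Cd40 (8.70 and 118) and the kinase gene Irak1 (6.74 and 70.7). The knockout list alone held Nfkbia, Traf2, Nfkbib (8.14 and 140), Nfkbie (8.54 and 103) and Tnip2 (3.77 and 58.0). The score of Tnip2 was higher than that of only 4.84% of knockout sites. Nfkbia, Nfkbib and Nfkbie encode the classical IkB proteins alpha, beta and epsilon, and all 3 were found for knockout alone, as were 11.6% of all genes with a site. This grouping was made after the values were seen, and the sites of Nfkbib and Nfkbie lie below a minimum score of 200. Nfkbid and Nfkbiz had no site, nor had Nfkb1, Nfkb2 and Rela.

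Of the pathway genes in both lists, Tab2, Otulin, Cyld and Tnip1 had the highest wild-type scores. Tab2, which links TRAF6 to the kinase TAK1, had folds of 15.6 and 11.6 and a score of 3100 in each list. Otulin, which removes linear ubiquitin chains, had folds of 52.2 and 17.8, and Cyld, another deubiquitinase of the pathway, 9.44 and 8.55. Tnip1, a partner of the ubiquitin editor A20, had 3 overlapping pairs of sites that went in both directions, with folds of 19.3 and 14.7, 11.1 and 3.71, and 12.9 and 18.5. The last pair held its strongest knockout site, with a score of 1981, against a highest wild-type score of 950.

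Of 46 JAK-STAT and SOCS genes, 27 had a site. The lists shared 20 of them, 3 (11.1%) were found for wild type alone and 4 (14.8%) for knockout alone, with median strongest scores of 524 and 384. Over all genes with a site the shares were 14.0% and 11.6%, and the median strongest scores 379 and 367. The JAK-STAT and SOCS counts include Socs1 and Socs3, which were chosen with the lists known. Il6st, the shared signalling receptor of the interleukin-6 family (fold 6.41, score 171), and the phosphatase gene Ptpn2 (3.64 and 60.8) joined Socs1 in the wild-type list. The score of Ptpn2 was higher than that of only 6.61% of wild-type sites. Jak1 (4.04 and 80.3) and Usp18, an inhibitor of interferon signals (8.27 and 73.2), were among the genes that joined Socs3 in the knockout list. In both lists, Il10ra, a receptor chain for interleukin-10, had folds of 27.9 and 21.0, Il4ra 17.8 and 9.57 and Lifr 9.41 and 6.54. Of 20 feedback genes of inflammation, which share members with the lists above, 15 had a site. The lists shared 9, with 2 (13.3%) for wild type alone and 4 (26.7%) for knockout alone, against 14.0% and 11.6% of all genes with a site. These counts include Socs1, Socs3 and Nfkbia, which were chosen with the lists known, and are too small to read a lean to one list. Their median strongest scores were 303 and 298, against 379 and 367 over all genes. Dusp1, a phosphatase that switches off MAP kinases, was found with Socs1 for wild type alone (9.54 and 52.0). Its score was higher than that of only 1.34% of wild-type sites. Trib1 had folds of 6.28 and 3.99 at overlapping sites, with scores of 660 and 57.8, and Atf3 had folds of 9.26 and 7.08.

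**Figure D5:**
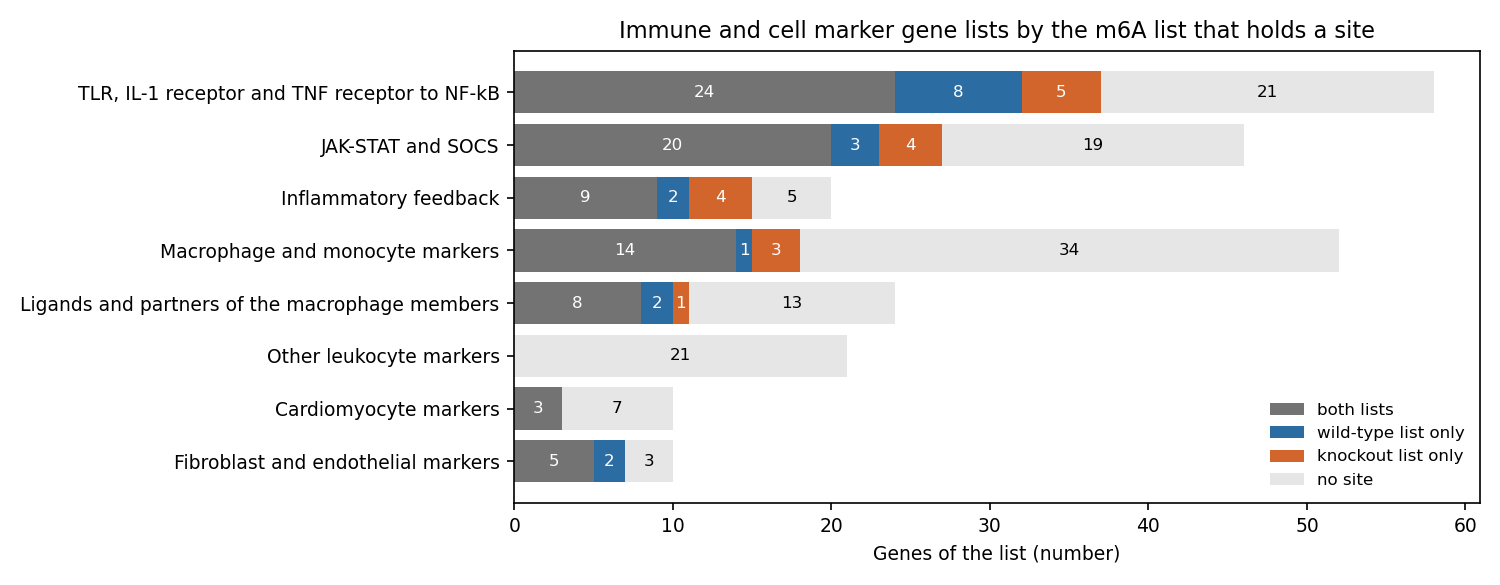
Number of genes of each list with m6A sites for both genotypes (dark grey), wild type alone (blue), knockout alone (orange) or neither (light grey). Genes with sites for both genotypes need not have overlapping ones. The macrophage list has 18 of 52 genes with a site, and the list of other leukocytes 0 of 21.

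Of 52 macrophage and monocyte markers, 18 had a site, including Cx3cr1, Itgam, Cd163 and C1qa, which were chosen with the lists known. The lists shared 14, with 1 (5.56%) for wild type alone and 3 (16.7%) for knockout alone, against 14.0% and 11.6% of all genes with a site, which is too few genes to read a lean to one list. The median strongest scores of the macrophage and monocyte markers were 204 and 149, against 379 and 367 over all genes with a site. Among the highest wild-type scores were those of transcription factors that are also known from cells other than macrophages. Maf had folds of 32.4 and 27.5 and Cebpb 15.3 and 10.6. The mannose receptor gene Mrc1 had 12.3 and 11.0. Cd86, a costimulatory receptor of antigen-presenting cells, was found for wild type alone (10.5 and 86.3). Beside C1qa, the Fc receptor gene Fcgr1 (score 126) and Spi1, the gene of the myeloid factor PU.1 (9.34 and 166), were found for knockout alone. Defining genes such as Adgre1, Csf1r, Cd68 and Ptprc had no site. Of 21 markers of T, B, natural killer and mast cells and of neutrophils, 0 had a site in either list. Of 10 fibroblast and endothelial markers, 5 were in both lists, and Tcf21 and Col3a1 were found for wild type alone. These 2 are 28.6% of the 7 with a site, against 14.0% of all genes with a site, again on few genes. Whether the number of macrophages differed between the hearts was not tested.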

How the data were processed

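Heart RNA of each genotype was profiled by MeRIP-seq (sequencing after pull-down with an m6A antibody, beside an input), with 4 libraries in all. Per the submitters' processing notes, cutadapt 1.9.3, HISAT2 2.0.4 and mm10 were used. Per the deposited tables, site names begin with MACS; no version or setting of the caller is named in them. Sites were called once per genotype from both libraries, per the series' design text. The fold is a ratio and the score minus 10 times the log10 of p, per the file headers; the false discovery rate is in percent, per the file headers. The lists hold 19.5% (wild type) and 20.7% (knockout) of the site numbers up to their highest one.

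Sites were taken by gene symbol, paired where they shared 1 bp or more on one strand (Python 3.11.15, pandas 2.3.3, numpy 2.4.6), and counted against bedtools 2.31.1; the pairing was checked on simulated intervals. Intervals are exact binomial (Clopper-Pearson, scipy 1.17.1). Pathway genes were also matched through the gene ID. Gene spans and promoters are from RefSeq (GRCm38.p6), and coordinates are 1-based. In each list of genes, those in one list only are given with their strongest site by score, and up to 4 in both by the largest wild-type score with the knockout site overlapping it; some of these genes are not reported here. The genes, lists and alternatives were chosen with earlier results of these data known. Sites were filtered by score or fold and lists shortened as alternatives.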

Additional observations from a re-analysis of the deposited data

How the results depend on the processing

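With a minimum score of 200, the genes in both lists fell from 3 to 1 (Cd163). Cx3cr1 was then in the wild-type list only, and Itgam and C1qa in neither. At that minimum the genes in one list only numbered 7 for the NF-kB pathway (13 as reported), 3 for JAK-STAT (7), 1 for macrophage markers (4) and 1 for their ligands and partners (3). The median log2 ratio of the 5 pairs was -0.08 after scaling to the list medians and -0.35 as deposited. The other 68 values recomputed for counts and shares stayed within 1.5 times or within the interval of the value as reported, or for folds kept the direction, under a minimum score of 100, a minimum fold of 5, lists of equal length, assignment by gene span or by any overlapping symbol, a reciprocal overlap of 50%, either strand, identical edges, other pairing and the 3′ edge of the site. Some of these 68 values could not move, so their number does not measure robustness. Filters could not add a site to the other leukocyte markers, which had none. The spans of the genes described here held only sites already assigned to them, so both other assignments returned the same counts. Each paired wild-type site overlapped a single knockout site, so pairing by the largest fold could not change the ratios. Traf6, Nfkbia, Socs1 and Socs3 kept their list under each of the 6 alternatives for gene membership. None of these could place them in the other list. Filters and shorter lists only remove sites, and the other list held no site of any symbol in their spans. No paired analysis was possible because each genotype has 1 library of each kind, and leaving out a replicate was not possible for the same reason. Depth is unknown, so no limit of detection can be given for a missing site.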

Other observations

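Genes whose products meet the macrophage receptors were examined as a list of 24 ligands and partners. Of these, 11 had a site, with 8 shared by the lists, 2 (18.2%) for wild type alone and 1 (9.09%) for knockout alone. Over all genes with a site these shares were 14.0% and 11.6%, and the genes here are too few to read a lean. The median strongest scores of the ligands and partners were 836 and 675, against 379 and 367 over all genes with a site. Calr, a chaperone that can serve as a signal for uptake of dying cells, had folds of 36.6 and 30.8 at overlapping sites, with a score of 3100 in each list. Csf1, the growth factor of macrophages, had folds of 13.9 and 9.58, with scores of 2561 and 675. The adhesion ligand Icam1 had scores of 1076 and 623, and C1ra, a protease of the first complement component, had folds of 11.7 and 6.40. Cx3cl1, the ligand of the Cx3cr1 receptor, was in both lists.

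The receptors of the complement fragments C3a and C5a stood in opposite lists. C3ar1 was found for wild type alone, with a score of 186, and C5ar1 for knockout alone, with a score of 60.0. Their folds were 8.12 and 5.36. The score of C3ar1 was higher than that of 40.7% of wild-type sites, but that of C5ar1 than only 6.05% of knockout sites. A site so near the low end of its list gives little weight to the contrast between the receptors. Hp, which encodes the haptoglobin bound by CD163, was also found for wild type alone, with a fold of 9.59.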
